A study of Homo sapiens with 6 samples.

Results

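The 5 isocitrate dehydrogenase genes and 4 further enzymes of the citrate cycle were followed in total RNA of HEK293, a human line from embryonic kidney. The 9 genes (IDH1, IDH2, IDH3A, IDH3B, IDH3G, CS, OGDH, FH and MDH2) were taken by name from a table of 60675 genes, and all 9 passed the filter on low counts, which left 18267 genes for testing. The groups were 3 libraries labelled MOCS2 RNAi knockdown and 3 control libraries labelled wild type. All cells were grown in high-glucose DMEM with serum and Geneticin, an antibiotic used to select cells that carry a resistance gene. What RNAi construct was used, whether each line was 1 clone, and whether replicates were separate cultures was not given in the sources read for this work, so p-values measure the spread between these libraries, which may be technical. MOCS2 codes for molybdopterin synthase, which acts in the making of the molybdenum cofactor.

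The citrate cycle oxidises acetyl groups in the mitochondrial matrix and passes the electrons to the respiratory chain. Its isocitrate step is carried out by IDH3, an NAD-dependent enzyme of alpha, beta and gamma subunits. IDH1, in the cytosol and peroxisomes, and IDH2, in mitochondria, are separate NADP-dependent enzymes that interconvert isocitrate and 2-oxoglutarate and make or use NADPH. Citrate that leaves mitochondria through the carrier SLC25A1 feeds lipid synthesis through ACLY, the ATP citrate lyase.

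Genes held 17958632 to 19362299 assigned reads in the libraries labelled knockdown, against 19895547 to 22171106 in controls. MOCS2 itself stood at 69.8, 58.9 and 59.9 CPM (read counts scaled to library size and composition) in knockdown 1, 2 and 3, against 57.8, 66.6 and 65.6 CPM in control 1, 2 and 3. Its log2 fold change was -0.01 with a 95% interval of -0.33 to 0.31 (edgeR adjusted p = 0.976). The targeted gene was thus not detectably lower in the libraries labelled knockdown, and every direction given here is that of the labels. Reads outside genes made up 37.5% of unique reads in knockdown 2, against 21.5% to 25.0% in the other 5 libraries, and transcripts of the mitochondrial genome 3.39% of assigned reads there, against 1.39% to 2.32%. Of 9 genes typical of HEK293, all had reads in every library, though PAX2 averaged only 1.25 CPM in the libraries labelled knockdown and 1.44 CPM in controls. Their sum was 2008 to 2722 CPM in the libraries labelled knockdown and 1528 to 2005 CPM in controls; VIM lay above every control, and LHX1, NEFL and LIN28B below, in all libraries labelled knockdown. Summed markers of blood cells reached 3.48 to 4.84 CPM in the libraries labelled knockdown and 2.56 to 4.67 CPM in controls (5 genes, of which CD3E and HBB were at 0 in some libraries). Endothelial markers reached 1.64 to 3.88 CPM in the libraries labelled knockdown and 3.37 to 4.53 CPM in controls (5 genes, CDH5 and TEK at 0 in some). Fibroblast markers summed to 11.2 to 18.9 CPM in the libraries labelled knockdown and 20.9 to 34.6 CPM in controls (7 genes, PDGFRB at 0 in knockdown 3). Of the fibroblast genes, LUM averaged 1.90 CPM in the libraries labelled knockdown and 11.9 CPM in controls, and PDGFRA 0.891 CPM in the libraries labelled knockdown and 3.51 CPM in controls, while COL1A1 and COL3A1 had log2 fold changes of 0.19 and 0.29 with overlapping groups. The fibroblast sum was lower in every library labelled knockdown than in any control. The HEK293 sum was higher there, by as little as 2008 against 2005 CPM. Its largest part was VIM, averaging 1277 CPM in the libraries labelled knockdown and 805 CPM in controls. The part of both sums in the results was not tested.

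The NADP-dependent isocitrate dehydrogenases had the lowest log2 fold changes of the 9 members. IDH1 and IDH2 RNA were both lower in all 3 libraries labelled knockdown than in any control. The ratio of the mean CPM to that of the controls was 0.488 for IDH1 and 0.411 for IDH2. CS and IDH3A, the citrate synthase and the catalytic subunit of IDH3, had nearly equal means in the groups. No member passed edgeR's quasi-likelihood test over all genes (adjusted p under 0.05), which called 0% of genes. At an unadjusted p under 0.05, 2 of the 9 members were lower and 0 higher, where 10.6% of all genes tested were lower and 9.93% higher. DESeq2 called IDH1 and IDH2 lower and no member higher, and of all genes 3.21% lower and 3.06% higher. With no filter on low counts edgeR called the same pair lower, with 2.03% of all genes lower and 1.6% higher. Without knockdown 3 edgeR called IDH1, IDH2 and IDH3B lower and no member higher, with 8.3% of all genes lower and 6.46% higher. The groups did not overlap in 3 members, all below the controls (IDH1, IDH2 and FH), as in 14.3% of all genes. The median log2 fold change of the 9 members was -0.25, against 0.02 over all genes.

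**Figure D1:**
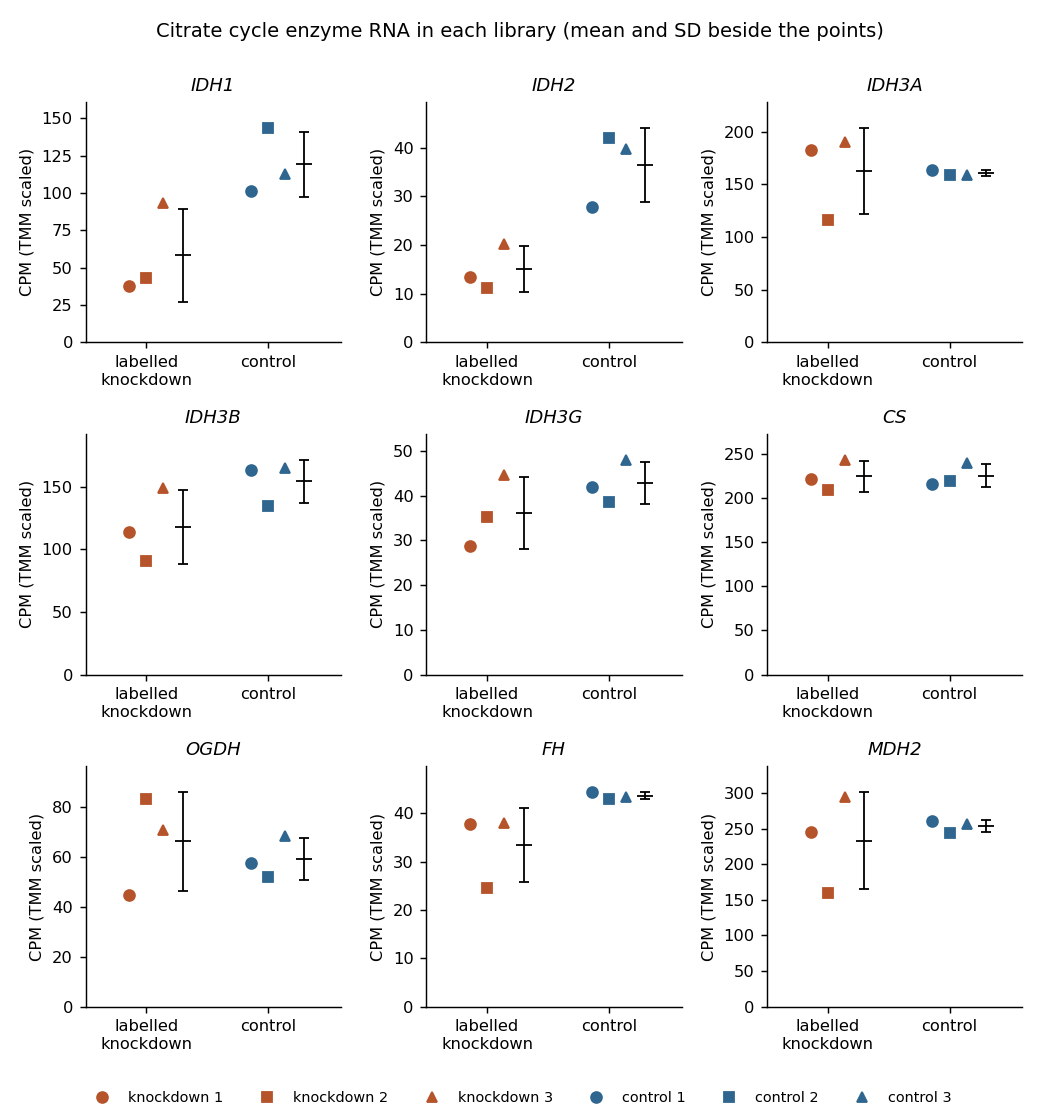
CPM of the 9 members in each library, with the libraries labelled knockdown on the left and the controls on the right of each panel; markers give the replicate and the bar beside them the mean and SD of 3 libraries. IDH1 and IDH2 lie lower in every library labelled knockdown than in any control, and knockdown 3 is the nearest to the controls in both.

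IDH1 (ENSG00000138413, chromosome 2, 208236227 to 208266074, minus strand, GRCh38) had 37.6, 43.4 and 93.6 CPM in knockdown 1, 2 and 3, against 101, 144 and 113 CPM in control 1, 2 and 3. Knockdown 1 and 2 were far below the controls, at 31.5% and 36.4% of the control mean, while knockdown 3 reached 78.6% of it. The mean was 58.2 ± 30.8 CPM in the libraries labelled knockdown and 119 ± 21.9 CPM in controls (SD, n = 3 each), or -1.03 on the log2 scale (fitted value, standard error 0.31, 95% interval -1.71 to -0.36, edgeR adjusted p = 0.120). Leaving out knockdown 3 moved it to -1.56 (edgeR adjusted p = 0.00112). DESeq2 gave an adjusted p of 0.0173.

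IDH2 (ENSG00000182054, chromosome 15, 90083045 to 90102504, minus strand) had 13.4, 11.3 and 20.3 CPM in knockdown 1, 2 and 3, against 27.8, 41.9 and 39.7 CPM in control 1, 2 and 3. Here too knockdown 3 was the highest of its group, at 55.7% of the control mean, and control 1 the lowest of its own. The mean was 15.0 ± 4.73 CPM in the libraries labelled knockdown and 36.5 ± 7.58 CPM in controls, or -1.28 on the log2 scale (fitted value, standard error 0.24, interval -1.82 to -0.74, edgeR adjusted p = 0.0735). IDH2 was number 73 of 18267 genes by edgeR's p, and IDH1 number 971. Without knockdown 3 the value was -1.57 (edgeR adjusted p = 0.00197), and DESeq2 gave an adjusted p of 0.000168.

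IDH1 and IDH2 are paralogs, and the letters of their messages show how far reads of one could be taken for the other. Over 1222 aligned coding bases of the principal GENCODE transcripts, 67.4% were identical, and the longest run they shared was 17 bases. The most alike stretch of 90 coding bases is shown for that reason, with the 18 bases that differ in capitals. It covers coding bases 612 to 701 of IDH1 (ENST00000415913.5, chromosome 2) and 729 to 818 of IDH2 (ENST00000330062.7, chromosome 15), both in the sense of the message.
IDH1: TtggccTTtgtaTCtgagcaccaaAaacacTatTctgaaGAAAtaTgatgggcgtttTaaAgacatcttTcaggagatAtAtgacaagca
IDH2: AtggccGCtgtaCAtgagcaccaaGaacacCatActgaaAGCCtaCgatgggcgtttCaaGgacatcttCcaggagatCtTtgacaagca
Differing bases occur throughout the stretch. Identity was 57.4% between IDH3A and IDH3B, 56.3% between IDH3A and IDH3G and 60.1% between IDH3B and IDH3G, with shared runs of at most 23 bases.

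The level of IDH2 relative to IDH1 did not separate the groups. The log2 ratio of IDH2 to IDH1 was -1.49, -1.95 and -2.20 in knockdown 1, 2 and 3, against -1.86, -1.78 and -1.51 in the controls 1, 2 and 3. The difference of the means was -0.16 (exact permutation test over the 6 libraries, two-sided, p = 0.5, where the smallest p that 3 against 3 allows is 0.1). The ranges overlap, which does not show that the 2 genes differed equally. Against IDH3A both stood lower. The log2 ratio of IDH1 to IDH3A was -2.28, -1.42 and -1.02 in knockdown 1, 2 and 3, against -0.70, -0.15 and -0.49 in the controls 1, 2 and 3. The log2 ratio of IDH2 to IDH3A was -3.77, -3.37 and -3.23 in knockdown 1, 2 and 3, against -2.56, -1.92 and -1.998 in the controls 1, 2 and 3. Neither of these ratios overlapped between groups; they were chosen after the values were seen and are given without a test.

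Per kilobase of merged exons, the make-up of isocitrate dehydrogenase RNA differed in the same way. IDH1 and IDH2 together held 13.5%, 16.8% and 20.9% of the summed level of the 5 genes in knockdown 1, 2 and 3, against 23.3%, 33.5% and 26.6% in the controls 1, 2 and 3. IDH3A held 28.3%, 21.7% and 21.5% in knockdown 1, 2 and 3, against 17.9%, 17.2% and 16.2% in the controls 1, 2 and 3. The summed level itself was 94.4, 78.4 and 129 CPM per kb in knockdown 1, 2 and 3, against 134, 135 and 143 CPM per kb in control 1, 2 and 3. IDH3A itself, per kb, averaged 23.9 ± 5.95 CPM in the libraries labelled knockdown and 23.5 ± 0.428 CPM in controls. With the length of each principal transcript in place of merged exons, IDH1 and IDH2 held 12.9% to 21.0% in the libraries labelled knockdown and 23.0% to 32.9% in controls. In these bulk samples, less RNA per cell and fewer cells with the RNA cannot be told apart.

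**Figure D2:**
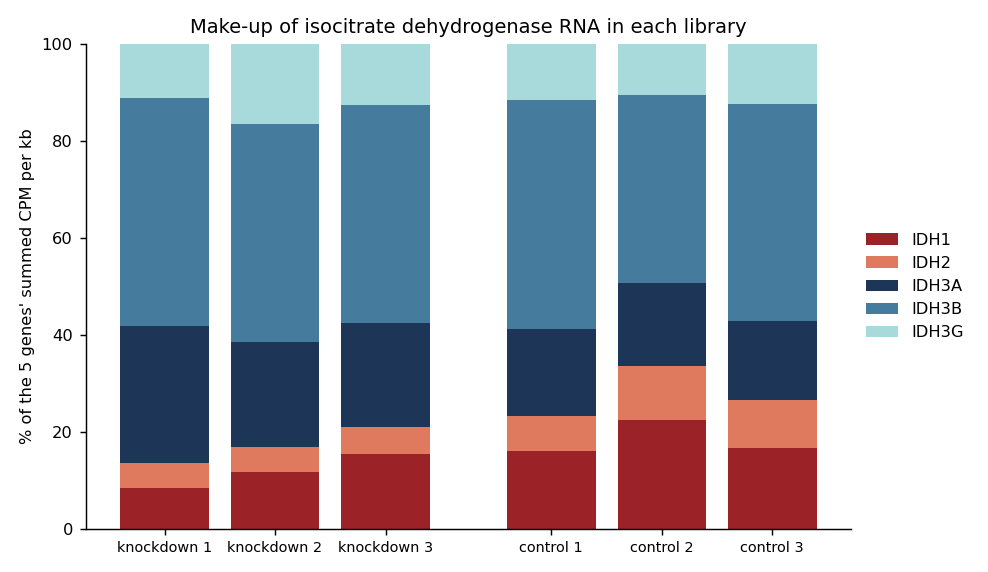
Share of each gene in the summed CPM per kb of merged exons of the 5 isocitrate dehydrogenase genes, 1 stacked bar per library, libraries labelled knockdown left and controls right. The red and orange parts, IDH1 and IDH2, together reach 13.5% to 20.9% in the libraries labelled knockdown and 23.3% to 33.5% in the controls.

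Of the IDH3 subunits, IDH3A is catalytic, and IDH3B and IDH3G complete the enzyme and take part in its regulation. IDH3A (chromosome 15, 78131498 to 78171949) had 183, 116 and 190.0 CPM in knockdown 1, 2 and 3, against 164, 159 and 159 CPM in control 1, 2 and 3. Knockdown 1 and 3 were above the controls and knockdown 2 below them. Its log2 fold change was 0.02, with a 95% interval of -0.40 to 0.44 (edgeR adjusted p = 0.958). IDH3B (chromosome 20, 2658395 to 2664219) had 114, 90.4 and 149 CPM in knockdown 1, 2 and 3, against 163, 135 and 165 CPM in control 1, 2 and 3. Knockdown 3 lay within the control range and the other pair below it, with a log2 fold change of -0.39, a standard error of 0.19 and an interval of -0.81 to 0.04 (edgeR adjusted p = 0.280). Without knockdown 3 the value was -0.60 (edgeR adjusted p = 0.0416). IDH3G (chromosome X, 153785766 to 153794523) had 28.7, 35.2 and 44.5 CPM in knockdown 1, 2 and 3, against 41.9, 38.7 and 48.0 CPM in control 1, 2 and 3, and its groups overlapped (log2 fold change -0.25, interval -0.65 to 0.16, edgeR adjusted p = 0.472). The log2 ratio of IDH3B to IDH3A was -0.68, -0.36 and -0.35 in knockdown 1, 2 and 3, against -0.0048, -0.24 and 0.06 in the controls 1, 2 and 3, with no overlap between groups and no test.

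CS, which condenses acetyl-CoA with oxaloacetate to citrate, had the log2 fold change nearest 0 among the members. It had 222, 209 and 243 CPM in knockdown 1, 2 and 3, against 216, 219.6 and 239.6 CPM in control 1, 2 and 3, so that the groups overlapped fully. The log2 fold change was -0.0036 with an interval of -0.32 to 0.31 (edgeR adjusted p = 0.991), and its sign changed with the scaling: it was 0.015 with upper-quartile factors. OGDH, the 2-oxoglutarate dehydrogenase that acts after the isocitrate step, had 44.5, 83.2 and 70.8 CPM in knockdown 1, 2 and 3, against 57.4, 51.8 and 68.3 CPM in control 1, 2 and 3. It was the member whose highest value came from knockdown 2, the library with the largest share of reads outside genes, and its interval of the log2 fold change ran from -0.32 to 0.64 (edgeR adjusted p = 0.710).

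FH, the fumarase, and MDH2, the mitochondrial malate dehydrogenase, carry out the last steps before oxaloacetate. FH (chromosome 1, 241497603 to 241519761) had 37.8, 24.6 and 37.9 CPM in knockdown 1, 2 and 3, against 44.4, 43.1 and 43.4 CPM in control 1, 2 and 3. All 3 libraries labelled knockdown were below all controls, which differed from each other by little, and knockdown 2 was the lowest. The mean was 33.4 ± 7.65 CPM in the libraries labelled knockdown and 43.6 ± 0.697 CPM in controls, or -0.38 on the log2 scale (fitted value, standard error 0.18, interval -0.79 to 0.02, edgeR adjusted p = 0.263). Without knockdown 2 it was -0.21. MDH2 had 245, 159 and 294 CPM in knockdown 1, 2 and 3, against 261, 244 and 256 CPM in control 1, 2 and 3. Here knockdown 3 was above and knockdown 2 below every control, and the log2 fold change of -0.12 had an interval of -0.58 to 0.34 (edgeR adjusted p = 0.773). Without knockdown 2 it was 0.083.

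The members' levels were set in order per kb, which allows genes of unequal length to be compared. Per kb of merged exons, MDH2 was the highest in both groups, at 64.0 ± 18.8 CPM per kb in the libraries labelled knockdown and 69.7 ± 2.36 CPM per kb in controls. IDH3B followed with 45.9 ± 11.5 and then CS with 35.1 ± 2.70 CPM per kb in the libraries labelled knockdown, and in controls IDH3B with 60.1 ± 6.62 and CS with 35.1 ± 2.00 CPM per kb. In controls IDH1 came next at 25.2 ± 4.65 CPM per kb, overlapping IDH3A at 23.5 ± 0.428. In the libraries labelled knockdown IDH1 was the last but one at 12.3 ± 6.53 CPM per kb, and its range overlapped that of OGDH, its neighbour in the order. IDH2 was the lowest there at 5.33 ± 1.68 CPM per kb with no overlap with IDH1, whereas in controls it stood at 12.96 ± 2.69 CPM per kb and overlapped both IDH3G and OGDH. In the libraries labelled knockdown neighbours from MDH2 to CS and from IDH3A to IDH1 overlapped. With principal transcript lengths, OGDH lay above IDH2 in controls and IDH1 above FH and OGDH in the libraries labelled knockdown, so the middle of the order depends on the length used.

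Taken over the 9 members, the libraries labelled knockdown were unlike each other. The median deviation of the members from the control mean, in log2 CPM, was -0.40, -0.67 and 0.06 in knockdown 1, 2 and 3, against -0.03, -0.03 and 0.09 in the controls 1, 2 and 3. Over all genes tested this median was between -0.0034 and 0.011 in every library. By this measure knockdown 3 was level with the controls, although its IDH1 and IDH2 were below them. Knockdown 2, with the largest shares of reads outside genes and of mitochondrial transcripts, was the lowest, and it was also the lowest for the other cycle enzymes (-0.47), pyruvate entry (-0.71) and the carriers and cytosolic counterparts (-0.93). The part of these shares in the results was not tested. Without knockdown 2, IDH1 had a log2 fold change of -0.87 (edgeR adjusted p = 0.192), against -1.03 with all libraries. IDH2 had -1.12 without it (edgeR adjusted p = 0.110), against -1.28 with all libraries.

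Several members share their locus with other genes, and reads that fall on both can be left out or split by the counting, whose strand setting none of the sources read here gives. IDH3A shares 2608 exon bases with ACSBG1 on the opposite strand, which had 60, 138 and 149 reads in knockdown 1, 2 and 3 and 76, 42 and 115 reads in control 1, 2 and 3, while IDH3A had 2188 to 3602 reads in the libraries labelled knockdown and 3151 to 3646 reads in controls. IDH3G shares 278 exon bases with SSR4 on the opposite strand, which had 1975 to 2155 reads in the libraries labelled knockdown and 2345 to 2795 reads in controls, more than IDH3G. IDH1-AS1, antisense to the 5′ part of IDH1, had 2 to 5 reads in the libraries labelled knockdown and 6 to 8 reads in controls. IDH2-DT, which starts beside IDH2 on the opposite strand, had 0 to 4 reads in the libraries labelled knockdown and 3 to 5 reads in controls. The groups of IDH1-AS1 did not overlap, but with at most 8 reads a library no difference is given for either RNA. PIKFYVE, which starts within 1 kb of the longest IDH1 transcripts on the opposite strand, had 1739, 1736 and 2354 reads in knockdown 1, 2 and 3 and 2443, 2848 and 1993 reads in control 1, 2 and 3, and its groups overlapped.

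Of the mitochondrial cycle, 11 other enzymes were measured. Of these, 2 were lower and 0 higher at an unadjusted p under 0.05, where 10.6% of all genes were lower. Of the 11, 9 had a negative log2 fold change (48.2% of all genes did), and the median was -0.12. The number lower was 0 without knockdown 1, and 1 without any 1 of the controls, with upper-quartile factors, DESeq2 or no filter. For these settings the share of all genes at an unadjusted p was not computed. SUCLG2, the GTP-forming succinyl-CoA ligase subunit, had 11.5, 10.8 and 20.4 CPM in knockdown 1, 2 and 3, against 21.3, 26.5 and 22.9 CPM in control 1, 2 and 3 (log2 fold change -0.73 with standard error 0.25, edgeR adjusted p = 0.147). SUCLA2, the ATP-forming counterpart, averaged 50.6 CPM in the libraries labelled knockdown and 48.3 CPM in controls, with overlapping groups. OGDHL, a relative of OGDH, averaged 1.86 CPM in the libraries labelled knockdown and 2.92 CPM in controls (edgeR adjusted p = 0.217). The succinate dehydrogenase subunits SDHA, SDHB, SDHC and SDHD had log2 fold changes between -0.14 and -0.05, with overlapping groups.

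**Figure D3:**
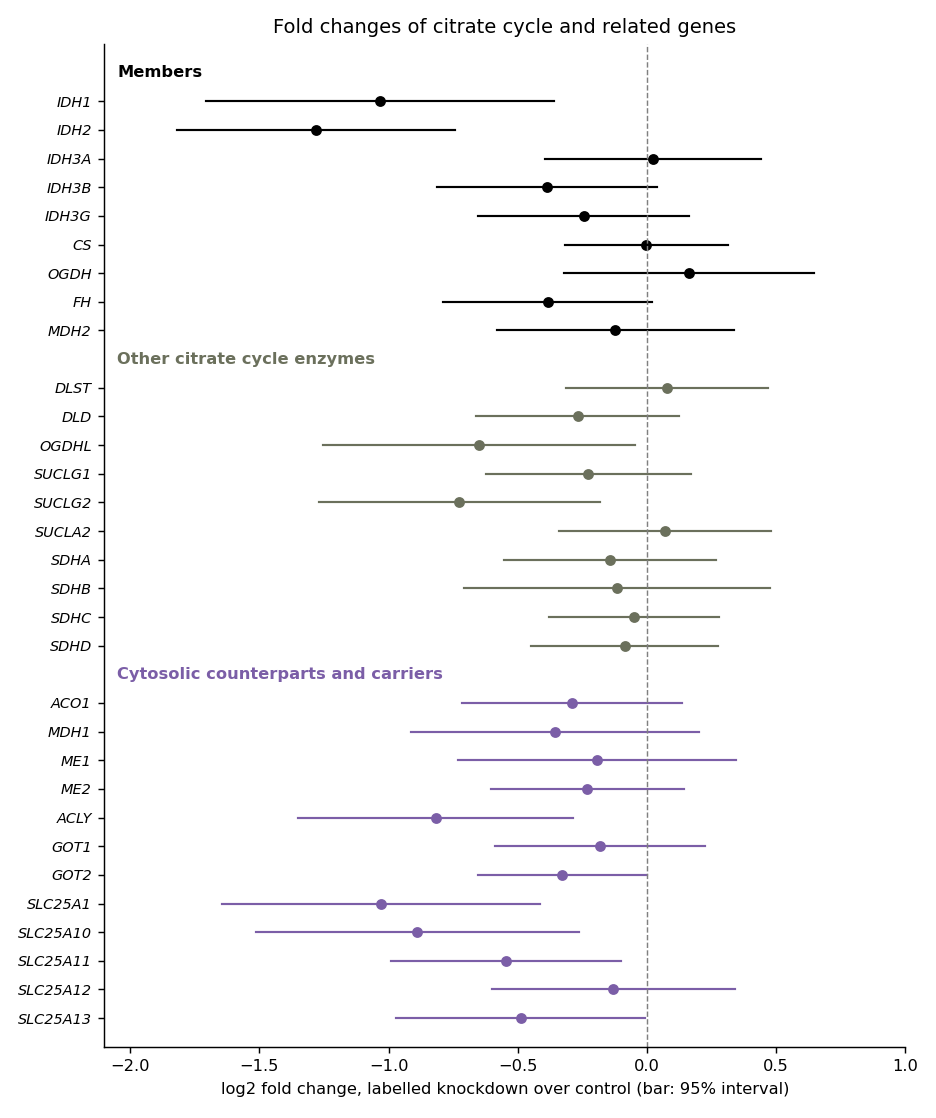
Log2 fold changes (points) of the libraries labelled knockdown over the controls with 95% intervals (bars) from edgeR, for the 9 members, 10 of the 11 other cycle enzymes and the 12 measured cytosolic counterparts and carriers. IDH2 at -1.28, IDH1 at -1.03 and SLC25A1 at -1.03 lie farthest to the left, and none passed the adjusted threshold.

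Genes that move citrate and related acids out of mitochondria, or use them in the cytosol, formed a further list. Of its 12 measured genes, 6 were lower and 0 higher at an unadjusted p under 0.05, against 10.6% of all genes lower. All 12 had a negative log2 fold change (48.2% of all genes did), and the median was -0.34. The number lower was 11 of 13 tested without knockdown 3, 3 of 13 without knockdown 1 and 3 of 12 without knockdown 2. Without knockdown 3, edgeR called 8.3% of all genes lower even at the adjusted threshold. The share of all genes at an unadjusted p was not computed for these settings. SLC25A1, the citrate carrier, had 39.9, 35.5 and 82.4 CPM in knockdown 1, 2 and 3, against 103, 118 and 101 CPM in control 1, 2 and 3. As for IDH1, knockdown 3 stood between the rest of its group and the controls (log2 fold change -1.03 with standard error 0.28; the adjusted p was 0.107 from edgeR and 0.0105 from DESeq2). ACLY had 347, 248 and 512 CPM in knockdown 1, 2 and 3, against 654, 721 and 578 CPM in control 1, 2 and 3 (log2 fold change -0.82, edgeR adjusted p = 0.119). The dicarboxylate carrier SLC25A10 averaged 8.61 ± 3.79 CPM in the libraries labelled knockdown and 15.9 ± 1.02 CPM in controls, and the 2-oxoglutarate carrier SLC25A11 68.3 ± 20.9 CPM in the libraries labelled knockdown and 99.8 ± 3.62 CPM in controls. SLC25A13, an aspartate-glutamate carrier, averaged 62.5 ± 20.5 CPM in the libraries labelled knockdown and 87.8 ± 8.93 CPM in controls, with groups that overlapped. ACO1, MDH1, ME1 and ME2, the cytosolic aconitase, the cytosolic malate dehydrogenase and the malic enzymes, had log2 fold changes from -0.36 to -0.19 and did not pass at an unadjusted p of 0.05. ME3 did not pass the filter, with 5 to 14 reads in the libraries labelled knockdown and 2 to 11 reads in controls.

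**Figure D4:**
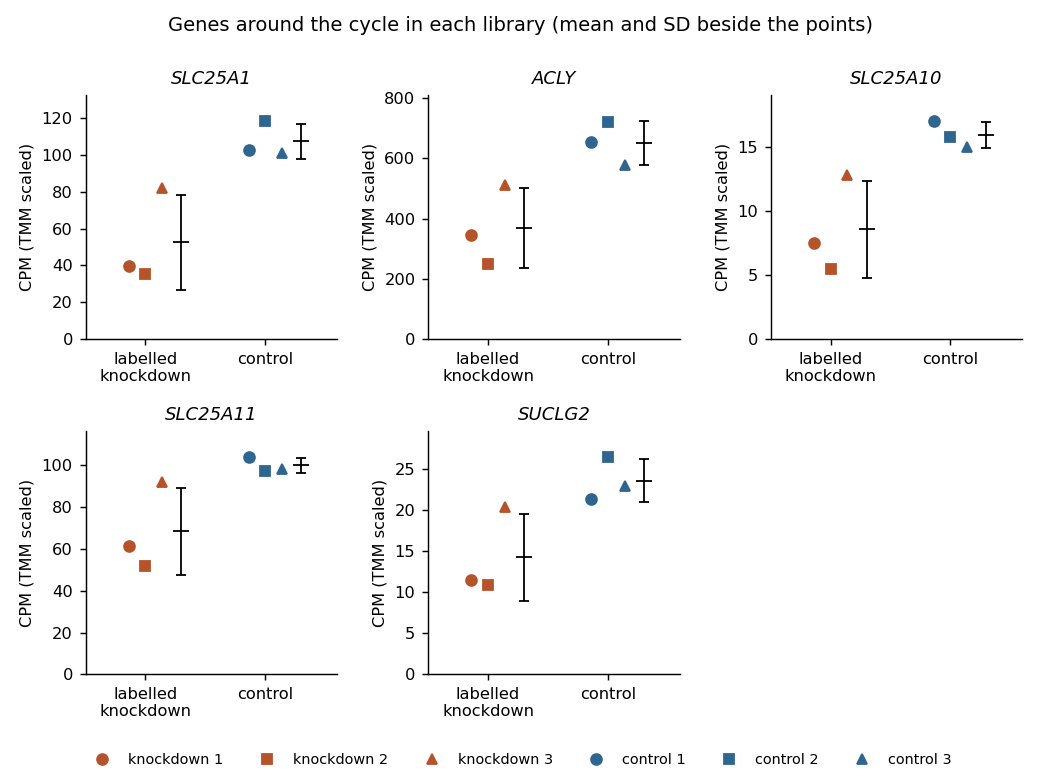
CPM of 5 genes around the cycle in each library, with the libraries labelled knockdown left and the controls right of each panel, and the mean and SD of 3 libraries beside the points. SLC25A1, ACLY, SLC25A10, SLC25A11 and SUCLG2 are lower in each library labelled knockdown than in any control, with knockdown 3 nearest to the controls in all 5.

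On the input side, 15 genes of pyruvate entry were measured. Of these, 3 were lower and 0 higher at an unadjusted p under 0.05, where 10.6% of all genes were lower and 9.93% higher. The median was -0.30, and the number lower was 8 without knockdown 3 and 1 without control 1 or control 3. Without knockdown 3, edgeR called 8.3% of all genes lower at the adjusted threshold. For these settings the share of all genes at an unadjusted p was not computed. PC, the pyruvate carboxylase that refills oxaloacetate, had 2.94, 5.47 and 7.65 CPM in knockdown 1, 2 and 3, against 8.58, 9.79 and 11.9 CPM in control 1, 2 and 3 (log2 fold change -0.91, edgeR adjusted p = 0.158). PDP2, a phosphatase that activates pyruvate dehydrogenase, averaged 23.3 ± 2.36 CPM in the libraries labelled knockdown and 31.9 ± 1.95 CPM in controls. PDK3, a kinase that inhibits it, averaged 19.9 ± 6.0 CPM in the libraries labelled knockdown and 27.8 ± 1.23 CPM in controls. GLUD1, the glutamate dehydrogenase that yields 2-oxoglutarate, averaged 146 CPM in the libraries labelled knockdown and 155 CPM in controls, with overlapping groups.

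The genes whose pattern over the 6 libraries was most like that of IDH2, by the root mean square difference of centred log2 CPM among 10463 other genes of at least 10 CPM, were LAMB1 (0.076), CYBA (0.124), ETFB (0.141), ETV1 (0.144) and UROS (0.156). LAMB1, a laminin chain, had 54.5, 46.7 and 96.4 CPM in knockdown 1, 2 and 3, against 120.4, 184 and 179 CPM in control 1, 2 and 3. IDH1 was number 39 in this order, with a difference of 0.249, where the median over all ranked genes was 0.722. This likeness is a description over 6 libraries that share the group difference, and carries no test.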

How the data were processed

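The deposited values are raw, unnormalized counts of reads for each Ensembl gene in 6 libraries. Per the labels' protocols, total RNA was extracted with TRIzol and depleted of ribosomal RNA in a stranded kit. Per the submitters' processing notes, the tools were TopHat2 2.0.13, HTSeq and bcl2fastq 2.18, with build hg38. No source read here gives the annotation release, strand setting or filters. Entries that HTSeq left unassigned stayed out of library sizes and tests. They were 59.4% to 70.0% of all entries in its totals, mostly those with several alignments. Such entries need not be distinct reads, so this is not a share of reads.

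Symbols, coordinates and exon lengths came from GENCODE 29 (57055 of 60675 identifiers matched; 106 of 106 list entries). The counts were tested with edgeR 4.0.16 (R 4.3.3): TMM factors, filterByExpr and a two-sided quasi-likelihood F test between the groups (knockdown over control), adjusted by Benjamini-Hochberg over all genes tested, with a threshold of 0.05. Intervals use the moderated degrees of freedom. TMM factors scale the CPM values; a prior count of 2 was added for log2 CPM. The IDH2 to IDH1 ratio had an exact permutation test (SciPy 1.17.1). The edgeR fit was tested on simulated counts with known changes. No pair of replicates agreed within sampling noise (11.6 to 75.3 in chi-square over degrees of freedom).

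All 9 members are named; of each related list, the members with an unadjusted p under 0.05 are named, up to 5 by smallest p, and others as points of comparison, chosen after their values were seen. The members and lists were chosen with earlier results of these data known. Alternatives were DESeq2 1.42.0, limma 3.58.1 voom, other scaling factors and filters, a replicate block and leaving out each library. Some genes of the related lists are not reported here by name. Lengths per gene are merged exons unless stated. Counts per gene do not separate isoforms.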

Additional observations from a re-analysis of the deposited data

How the results depend on the processing

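IDH1, IDH2, IDH3B, IDH3G and FH kept a negative log2 fold change in all 13 alternatives. Of the list genes, SUCLG2, OGDHL, PDP2, PC, PDK3, SLC25A1, ACLY, SLC25A10, SLC25A11, SLC25A13, TET3, FTO and MTHFD1 were refitted and kept their direction. IDH1 ran from -1.56 to -0.80 (adjusted p from 2.1e-05 to 0.435) and IDH2 from -1.57 to -1.12 (adjusted p from 3.3e-07 to 0.406); both passed with DESeq2, with no filter and without knockdown 3. edgeR called 0 genes in all and DESeq2 559 higher and 586 lower, of which 2 members; with no filter edgeR called 694 higher and 880 lower, of which 2 members (2.03% of genes lower), with 4 members lower at an unadjusted p under 0.05; the cause was not tested. Leaving out 1 library gave 0 to 1232 genes higher, 0 to 1583 lower, 0 to 3 members called lower and 2 to 5 lower at an unadjusted p, the highest each time without knockdown 3. The share of all genes at an unadjusted p under 0.05 was computed for the main fit only. Counts of members and list genes at that threshold in the alternatives therefore have no matching share. limma voom called 0 genes.

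Values near 0 changed sign, with no call in any setting. CS was 0.0022 with DESeq2 size factors, 0.0023 with DESeq2, 0.0012 with the stricter filter, 0.015 with upper-quartile factors and -0.069 to 0.039 without 1 library. IDH3A was -0.011 with voom and -0.11 to 0.21 without 1 library. OGDH ran from -0.044 to 0.38, MDH2 from -0.33 to 0.083 and MOCS2 from -0.094 to 0.027 without 1 library, and MOCS2 was 0.0095 with upper-quartile factors. The IDH2 to IDH1 difference ran from -0.36 (without knockdown 1) to -0.0021 (without knockdown 3). With no filter the median log2 fold change over all genes was 0.12, against 0.02 with the filter.

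Deviations of same-numbered libraries from their group means correlated at 0.11, -0.17 and -0.12. Those of libraries with unlike numbers correlated at -0.08 to 0.19. With 3 libraries a group these values cannot show whether the samples were paired. With the replicate number as a block, 6 genes were called higher and 13 lower, and 0 members were called. At an unadjusted p under 0.05, 4 members were lower, as were 1 other cycle enzyme and 2 dioxygenases. IDH3A was -0.0098. The IDH2 to IDH1 difference of -0.16 cannot change with this block. The mean of the differences between same-numbered libraries is by arithmetic the difference of the group means.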

Other observations

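Enzymes that use 2-oxoglutarate, the product of the isocitrate step, and other sources of NADPH were measured beside the cycle. Of 15 dioxygenases that use 2-oxoglutarate, TET3 was higher and FTO lower at an unadjusted p under 0.05, where 9.93% of all genes were higher and 10.6% lower. The number lower was 0 with upper-quartile factors and without knockdown 1, control 1 or control 2, and 2 with no filter and without knockdown 2 or knockdown 3. The number higher was 1 in each of these settings. The share of all genes at that threshold was not computed for them. TET3, which oxidises methylcytosine in DNA, had 73.1, 79.9 and 60.6 CPM in knockdown 1, 2 and 3, against 46.6, 49.4 and 47.3 CPM in control 1, 2 and 3 (log2 fold change 0.58 with standard error 0.15, edgeR adjusted p = 0.102). FTO, an RNA demethylase, had 64.6, 78.0 and 59.1 CPM in knockdown 1, 2 and 3, against 87.8, 91.4 and 81.8 CPM in control 1, 2 and 3 (log2 fold change -0.37, edgeR adjusted p = 0.204). The list's median was -0.12, against 0.02 over all genes.

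Of 9 other genes of NADPH supply, MTHFD1, a folate enzyme, was higher at an unadjusted p under 0.05, averaging 281 ± 71.9 CPM in the libraries labelled knockdown and 207 ± 17.9 CPM in controls, with overlapping groups (edgeR adjusted p = 0.233). Of all genes 9.93% were higher. The number higher in this list was 0 with voom and without knockdown 1, knockdown 3 or any 1 of the controls, and 2 with upper-quartile factors, DESeq2, no filter, the stricter filter and without knockdown 2. MTHFD1 had a log2 fold change of 0.44, and of 0.23 without knockdown 1. The number lower was 0, and 2 with no filter and without knockdown 2 or knockdown 3. Without knockdown 3, edgeR called 8.3% of all genes lower even at the adjusted threshold. For these settings the share of all genes at an unadjusted p was not computed. PGD, of the pentose phosphate pathway, had a log2 fold change of 0.02 with overlapping groups.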
